A study of Mus musculus with 2 samples.

Results

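Chromatin modifiers and remodellers were examined in thigh skeletal muscle of 26-month-old B6C3F1 mice. Poly(A) RNA of mice on the control diet gave 1 library. The other library came from mice on calorie restriction (CR), which ate about 40% fewer calories during 25 months on a diet whose enrichment kept intake of protein and micronutrients, relative to body weight, close to that of controls. Nothing in the labels says how many mice each library holds. Members were the genes whose symbols open with the family names Kdm, Jmjd, Setd, Ezh, Mll, Ehmt, Suv, Hdac, Kat, Myst, Brd, Smarc, Chd, Dnmt or Tet. A number had to follow Kat, Myst, Brd, Chd and Tet, and Mll had to stand alone or end in 1 digit. Hdac4 was left out. The rule found 88 genes among 10543 genes with a single symbol, and each of the 88 had 1 locus and passed the filter at a mean of 1 FPKM. FPKM corrects the number of fragments for the length of the transcript and for the size of the library, so levels of different genes can be compared per length. Since there is 1 library per diet, no difference has a replicate check and no test across samples was possible. The depth of the libraries is unknown. Values given in pairs are those of the control library and then of the CR library.

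Chromatin is DNA wrapped on histones, and enzymes mark both. Methyltransferases, acetyltransferases and DNA methyltransferases write marks, demethylases, deacetylases and Tet enzymes remove or oxidise them, and bromodomain proteins bind acetylated lysine. Remodellers of the Smarc and Chd families use ATP to move or eject nucleosomes. In muscle, class IIa deacetylases bind Mef2 factors and hold back their target genes, and the Smarcd3 form of the SWI/SNF complex takes part in muscle gene activation.

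The muscle label was checked against 12 defining genes, such as Acta1 and Ckm, all of which were above 0 in both libraries. Under CR 9 of the 12 were higher, 1 of them past 2-fold, and their sum stood at 1.16e+06 and 1.59e+06 FPKM. The libraries differed in other transcripts too. Under CR all 9 slow fibre markers stood 2-fold or more above the control level, with a summed level of 15607 and 132640 FPKM, and so were 8 of 9 white adipocyte markers (4149 and 19081 FPKM; Adrb3 at 0 in the control library). All 6 measured denervation genes were at least 2-fold lower (4064 and 940.2 FPKM; Chrng at 0 in the CR library), as were 3 of 6 tendon markers (1740.0 and 1033 FPKM). Fibroblast markers were higher in 6 of 6 cases, 3 of them past 2-fold (3227 and 5701 FPKM), and endothelial markers in 6 of 6, 2 of them past 2-fold (1710 and 2489 FPKM); all 12 were above 0 in both libraries. Of 8 white blood cell markers 2 were measured, and they differed in direction. S100a8 was listed at 0 and 581 FPKM, and Cd68 stood at 99.7 and 66.9 FPKM. Their summed level of 99.7 and 648 FPKM thus rose through S100a8 alone. None of 6 markers of dividing cells was among the genes measured. The part of these transcripts in the results was not tested, and in whole tissue fewer cells of a type and less RNA per cell cannot be told apart.

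Most chromatin genes stood at a middling level and close together in the libraries. The mean of both libraries ran from 16.9 to 2966 FPKM with a median of 323, beside a median of 224 FPKM over all genes. It lay between 100 and 1000 FPKM for 76 of the 88 genes. The highest levels were those of Setd3, which methylates a histidine of actin (2971 and 2961 FPKM), Chd4, the main ATPase of the NuRD deacetylase complex (3125 and 2574 FPKM), and the acetyltransferase Kat2b (1588 and 1287 FPKM). These 3 were the members above 1000 FPKM, and Setd3 differed least between the libraries of all 88.

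A ratio of at least 2-fold on the scale of FPKM + 1 was used as the threshold. In the CR library 4 of 88 members passed it on the higher side (4.55%, beside 8.01% of the 10533 genes that passed the filter) and 8 on the lower side (9.09%, beside 10.7% of all genes). Neither share exceeds that of all genes, so the number of members past 2-fold is no result about chromatin genes. The rest, 76 genes, lay within 2-fold. Among the 12 past 2-fold, 6 had a mean under 100 FPKM, where only 9 of the 88 members lie. Over all genes, too, the shares past 2-fold were smaller at a mean of 100 FPKM or more, so this is not particular to the members. Of the 79 members with a mean of 100 FPKM or more, 2 passed on the higher side (beside 4.95% of all genes there) and 4 on the lower side (beside 5.29%).

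**Figure D1:**
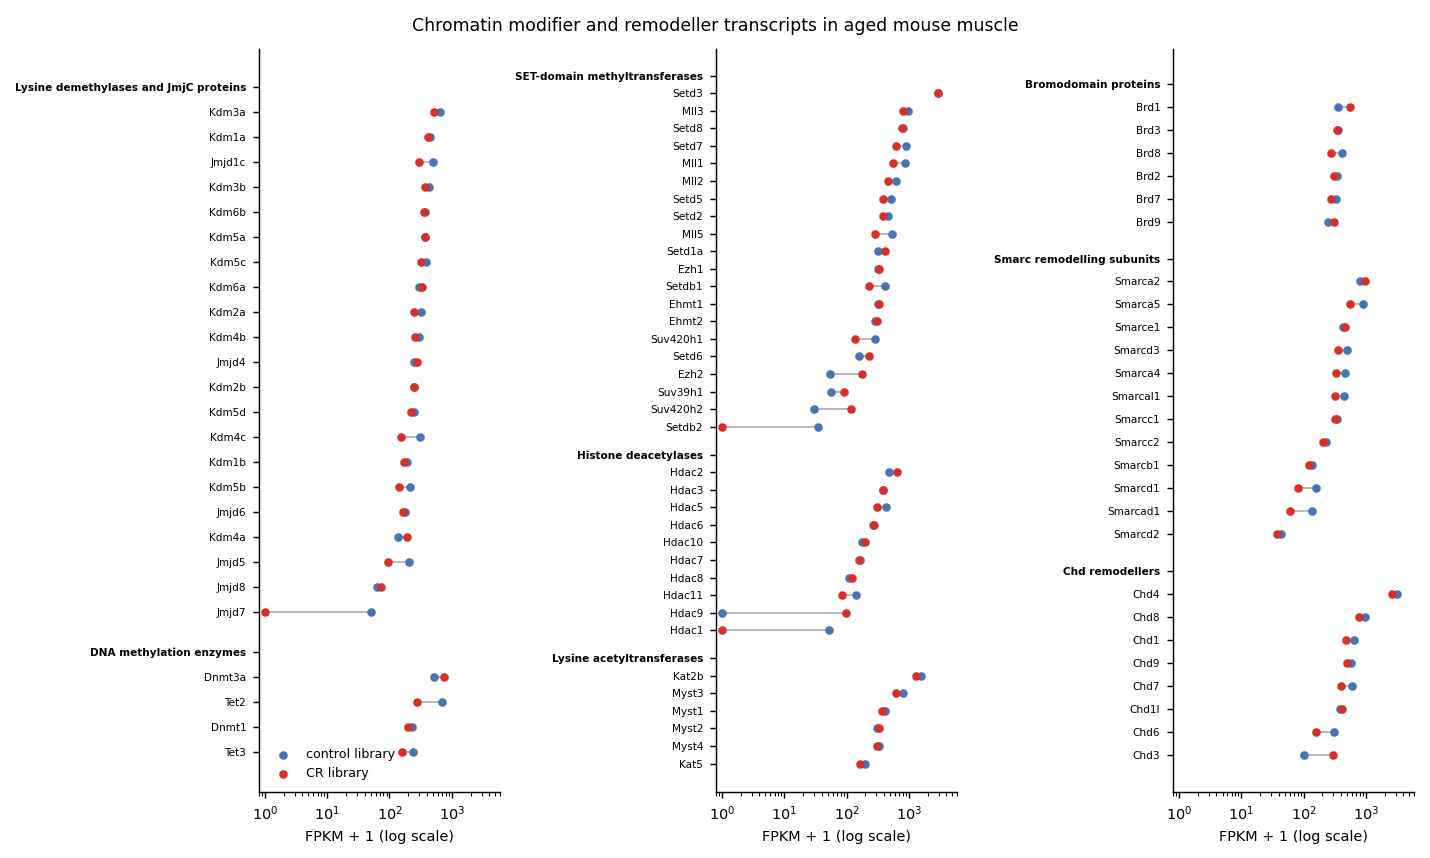
FPKM + 1 on a log axis for 87 of the 88 chromatin genes, grouped by class and ordered by mean level, with the control library in blue and the CR library in red (1 library each, no error bars). Most pairs of points nearly touch; the long lines belong to Hdac1, Jmjd7 and Setdb2, at 0 in the CR library, and Hdac9, at 0 in the control library.

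The direction of the small differences was less even. Of the 88 members, 63 were lower in the CR library by any amount and 25 were higher (71.6% lower, beside 52.1% of all genes). The median log2 ratio of CR over control was -0.19, a level 1.14-fold lower, beside -0.03 over all genes. At a mean of at least 100 FPKM the share lower was 73.4% (58 of 79), beside 51.1% of all genes. The members' levels summed to 38259 and 33228 FPKM, beside 6.69e+06 and 7.65e+06 FPKM over all genes, so the libraries do not share a total.

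**Figure D2:**
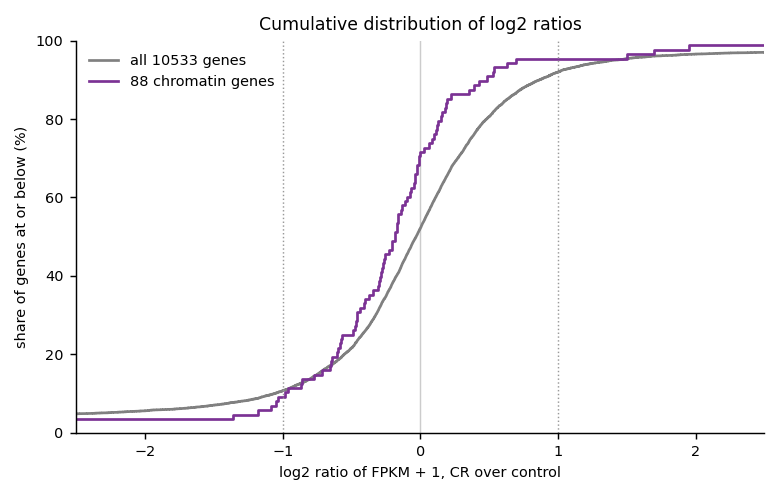
Cumulative share of genes (vertical axis, %) at or below each log2 ratio of FPKM + 1, CR over control (horizontal axis), for the 88 chromatin genes in purple and all 10533 genes in grey; dotted lines mark 2-fold. At a ratio of 0 the purple curve has reached 71.6% and the grey curve 52.1%, while past the dotted lines the chromatin genes hold no larger share than all genes.

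Chromatin genes are long, and length moved with the log2 ratio across the whole table. The longest coding transcript of a member had a median of 4852 nt, beside 3199 nt over all genes, and 51 of 87 members with a known length were in the upper 3 deciles of length. Over all genes the median log2 ratio was 0.26 in the shortest decile (360 to 1329 nt) and -0.19 in the longest (6746 nt and more). The 23 members in the longest decile had a median of -0.40, and 20 of them were lower in the CR library. Of all 1027 genes in that decile, 63.3% were lower. After the median of each gene's length decile was subtracted, the members' median was -0.10, and 53 of 87 were below the median of their decile. The part of transcript length, or of the processing that could act through it, was not otherwise tested.

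**Figure D3:**
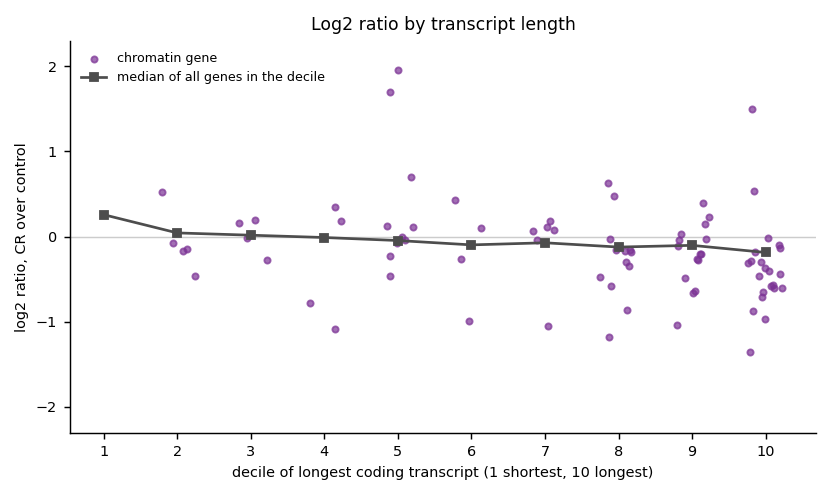
Log2 ratio of CR over control (vertical axis) by decile of the longest coding transcript (horizontal axis, 1 shortest), with chromatin genes as purple points spread sideways for visibility and the median of all genes of the decile as squares. The squares go from 0.26 in the first decile to -0.19 in the last, where 23 chromatin genes lie; the 4 genes listed at 0 in a library lie outside the axis, and Mll2, with no length, is not drawn.

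Of the 84 members above 0 in both libraries, 3 passed 2-fold on the higher side, beside 6.15% of all genes above 0 in both. The largest ratio was that of Suv420h2, which adds further methyl groups to monomethylated lysine 20 of histone H4 (mm9 chromosome 7, 4691729 to 4699116), at 29.4 and 116 FPKM, 3.87-fold higher. Ezh2, the catalytic subunit of Polycomb complex PRC2 that methylates lysine 27 of histone H3 (chromosome 6, 47480273 to 47545029), stood at 54.1 and 178 FPKM, 3.24-fold higher. Chd3, a NuRD ATPase (chromosome 11, 69156775 to 69182928), stood at 102 and 290.2 FPKM, 2.83-fold higher. In the control library these genes were well below the median level of the members.

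On the lower side, 5 members above 0 in both libraries were past 2-fold, beside 6.85% of all genes. Tet2, which oxidises 5-methylcytosine (chromosome 3, 133126641 to 133207354), went from 699.6 in the control to 272 FPKM under CR, a 2.57-fold lower level. It was the most abundant member past 2-fold. The remodeller Smarcad1 (chromosome 6, 64992661 to 65066043) stood at 135 and 59.1 FPKM, 2.27-fold lower, and the JmjC protein Jmjd5 (chromosome 7, 132588190 to 132605773) at 203 and 95.1 FPKM, 2.12-fold lower. Kdm4c, a demethylase of lysine 9 and lysine 36 of histone H3 (chromosome 4, 73888401 to 74051768), stood at 311 and 149.7 FPKM, 2.07-fold lower. An unnamed locus on the opposite strand overlaps it, and the protocol names no strand-marking step, so reads of the overlap cannot be assigned. Of the 88 members, 33 overlap at least 1 other locus, among them Smarca4 with 23 loci and Chd4 and Mll2 with 8 each. A named gene is overlapped by 10 members. Suv420h1, the paralog of Suv420h2 (chromosome 19, 3767421 to 3818303), stood at 281 and 136 FPKM, 2.05-fold lower. The last pair lost the 2-fold call once the median of the length decile was subtracted, with log2 ratios of -0.98 for Kdm4c and -0.93 for Suv420h1.

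Promoters are shown for 5 of the 6 members with the largest ratios above 0 in both libraries (3 in each direction; Chd3 is not shown), so that genes that differ in opposite directions can be read side by side. Each line gives the 250 bases before the RefSeq start on build GRCm38.p6, 5′ to 3′ on the gene's strand, with matches on either strand in capitals to CCAAT (the box bound by NF-Y), CCGGAAG (the ETS core), CGCATG (part of the NRF1 site) and TATAAA (the TATA box). Smarcad1 has 2 starts in that table, and the first is shown.
Suv420h2 (Kmt5c in RefSeq), chr7:4739877-4740126, plus strand: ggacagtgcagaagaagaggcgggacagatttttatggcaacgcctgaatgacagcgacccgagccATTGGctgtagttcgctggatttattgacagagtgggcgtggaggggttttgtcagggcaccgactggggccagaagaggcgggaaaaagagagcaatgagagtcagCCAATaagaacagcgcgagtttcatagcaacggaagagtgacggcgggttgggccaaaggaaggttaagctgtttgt
Ezh2, chr6:47595031-47595280, minus strand: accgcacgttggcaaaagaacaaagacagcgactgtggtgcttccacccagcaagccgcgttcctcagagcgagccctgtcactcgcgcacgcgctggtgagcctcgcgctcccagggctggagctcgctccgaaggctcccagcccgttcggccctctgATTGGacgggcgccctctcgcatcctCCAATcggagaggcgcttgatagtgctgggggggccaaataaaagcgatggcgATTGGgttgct
Tet2, chr3:133544391-133544640, minus strand: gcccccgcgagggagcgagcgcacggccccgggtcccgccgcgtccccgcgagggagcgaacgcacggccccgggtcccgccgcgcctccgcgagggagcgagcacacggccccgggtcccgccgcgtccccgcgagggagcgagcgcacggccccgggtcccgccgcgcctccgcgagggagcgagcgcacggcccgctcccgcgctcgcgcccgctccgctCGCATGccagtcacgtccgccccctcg
Smarcad1, chr6:65042341-65042590, plus strand: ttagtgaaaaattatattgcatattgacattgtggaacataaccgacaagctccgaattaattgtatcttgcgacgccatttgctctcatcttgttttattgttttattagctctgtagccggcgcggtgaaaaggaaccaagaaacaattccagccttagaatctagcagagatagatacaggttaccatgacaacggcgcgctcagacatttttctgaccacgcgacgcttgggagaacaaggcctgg
Jmjd5 (Kdm8 in RefSeq), chr7:125444370-125444619, plus strand: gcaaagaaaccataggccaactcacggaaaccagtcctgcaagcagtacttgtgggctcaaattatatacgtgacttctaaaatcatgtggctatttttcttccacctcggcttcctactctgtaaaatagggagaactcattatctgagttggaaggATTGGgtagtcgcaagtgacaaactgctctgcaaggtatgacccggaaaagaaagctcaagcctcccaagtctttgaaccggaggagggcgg
Of the promoters shown, those of Suv420h2 and Ezh2 hold CCAAT at 2 and 3 places. Jmjd5 holds it at 1 place, Tet2 holds CGCATG at 1 place, and Smarcad1 holds none of the 4 motifs. CCAAT stands in 35.8% of the 8362 promoters of genes of the table that were matched to RefSeq and in 27 of 72 matched members (37.5%). CCGGAAG was in 8.33% of member promoters and 14.1% of all, CGCATG in 11.1% and 8.89%, and TATAAA in 6.94% and 6.29%. CpG dinucleotides numbered 13 in Suv420h2, 23 in Ezh2, 51 in Tet2, 13 in Smarcad1 and 7 in Jmjd5, beside a median of 18 over the members and 16 over all matched genes. A match is a description of the letters and shows no binding.

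For 4 members no fold is given, because they were listed at 0 in a library. Hdac9, a class IIa deacetylase, was listed at 0 and 96.6 FPKM. At 0 in the CR library were Hdac1, a class I deacetylase (50.9 FPKM in the control library), the JmjC protein Jmjd7 (49.9 FPKM) and Setdb2, a methyltransferase of the Setdb family (33.8 FPKM). A value of 0 in this table can be a failed estimate: Ttn and Neb, the giant sarcomere genes, were at 0 in both libraries. Setdb2 also overlaps Cab39l on the opposite strand. Of all 10533 genes, 239 were at 0 in the control library and 450 under CR.

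Just inside 2-fold on the lower side were the SWI/SNF subunit Smarcd1 (159 and 79.5 FPKM, log2 ratio -0.99) and the remodeller Chd6 (312 and 159.6 FPKM, -0.96). Then came Mll5 (527 and 289 FPKM, -0.87), which overlaps Srpk2, and Setdb1, which trimethylates lysine 9 of histone H3 (419 and 229.8 FPKM, -0.86) and overlaps Lass2. The fifth was the class IV deacetylase Hdac11 (143 and 83.3 FPKM, -0.78). On the higher side the nearest were Suv39h1, another methyltransferase of lysine 9 (56.0 and 91.5 FPKM, log2 ratio 0.70), Brd1 (361 and 561 FPKM, 0.63), Dnmt3a (514 and 747 FPKM, 0.54), Setd6 (158 and 229 FPKM, 0.53) and Kdm4a (138 and 192 FPKM, 0.48). There was a wider gap around 2-fold on the higher side, between Suv39h1 and Chd3, than on the lower side, between Smarcd1 and Suv420h1.

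Demethylases and JmjC proteins numbered 21, of which 0 passed 2-fold on the higher side, 3 passed it on the lower side and 17 were lower by any amount (beside 8.01%, 10.7% and 52.1% of all genes), with a median log2 ratio of -0.17. After the length-decile medians were subtracted the class median was -0.0634. The most abundant was Kdm3a, which acts on lysine 9 of histone H3 (656 and 516 FPKM). Its relatives Kdm3b (426 and 369 FPKM) and Jmjd1c (494 and 301 FPKM) were lower as well. Kdm1a, the flavin-dependent demethylase LSD1, stood at 442 and 421 FPKM, and its relative Kdm1b at 191 and 168. Of the lysine 36 demethylases, Kdm2a stood at 322 and 243 FPKM and Kdm2b at 248 and 244. The 4 Kdm5 genes remove methyl groups from lysine 4 of histone H3. Kdm5a (368 and 365 FPKM) stayed within a few FPKM, and Kdm5b (214 and 139.9 FPKM), X-linked Kdm5c (383 and 320.2 FPKM) and Y-linked Kdm5d (245 and 224 FPKM) were lower. The demethylases of lysine 27, Kdm6a (301 and 334 FPKM) and Kdm6b (374 and 363 FPKM), were nearly level. The Kdm4 family was split, since Kdm4a was higher, Kdm4b lower by a small ratio (291 and 259 FPKM) and Kdm4c past 2-fold lower. The JmjC proteins Jmjd4 (242 and 276 FPKM), Jmjd6 (175 and 166 FPKM) and Jmjd8 (62.4 and 71.3 FPKM) lay within 2-fold; each of them overlaps another named gene in the table.

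The 20 SET-domain methyltransferases held 2 members at least 2-fold higher and 2 at least 2-fold lower, beside 8.01% and 10.7% of all genes, and their median log2 ratio was -0.17. That median was -0.0415 without Setdb2, which is listed at 0, 0.00417 after the length-decile medians were subtracted and -0.29 with a mean of 100 FPKM or more, where 1 gene was past 2-fold in each direction. Of the writers of lysine 4 methylation on histone H3, all within 2-fold, Mll1 stood at 875 and 558 FPKM, Mll2 on chromosome 15 at 613 and 461, and Mll3 at 984 and 794, while Setd1a stood at 315 and 414. Setd2, the writer of trimethylated lysine 36, stood at 467 and 382 FPKM, Setd5 at 521 and 384, and Setd7 at 907 and 609.7. Setd8, which places the first methyl group on lysine 20 of histone H4, stood at 809.8 and 787 FPKM, close to level, whereas the enzymes that extend that mark, Suv420h1 and Suv420h2, were past 2-fold in opposite directions. The lysine 9 enzymes Ehmt1 (319 and 326 FPKM) and Ehmt2 (284 and 308 FPKM) differed little.

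The 10 deacetylases measured had a median log2 ratio of 0.04, with 5 higher and 5 lower. Hdac9 and Hdac1, each listed at 0 in a library, were the only ones past 2-fold. Over all genes, 52.1% were lower, 8.01% were past 2-fold higher and 10.7% past 2-fold lower. Among class I enzymes, Hdac2 was the most abundant of the 10 (483 and 649 FPKM), Hdac3 was level (390.1 and 387 FPKM), and Hdac8 stood at 109 and 121 FPKM. Hdac5 (425 and 306 FPKM) and Hdac7 (162 and 158 FPKM) are class IIa enzymes like Hdac9; Hdac7 overlaps Slc48a1. The class IIb enzymes Hdac6 (260.2 and 275 FPKM) and Hdac10 (176 and 199.9 FPKM) were slightly higher. None of 16 listed partners of class IIa enzymes, among them Mef2c (2394 and 2197 FPKM) and the calcium-dependent kinase gene Camk2b (1706 and 912 FPKM), was past 2-fold.

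Of all 10533 genes, 8565 lay within 2-fold, and so did 6 of 6 acetyltransferases, with a median log2 ratio of -0.21. Beside Kat2b they were Myst3 (816 and 630.5 FPKM), Myst1, which acetylates lysine 16 of histone H4 (415 and 376 FPKM), Myst4 (330.4 and 308 FPKM), Myst2 (311 and 334 FPKM) and Kat5 (194 and 161 FPKM), which overlaps Rnaseh2c. The 7 bromodomain genes also lay within 2-fold, with a median of -0.16, which was -0.0380 after the length-decile medians were subtracted. Of the BET proteins, which tie acetylated histones to transcription, Brd2 stood at 336 and 301 FPKM and Brd3 at 352 and 346. Brd7 (334 and 278 FPKM) and Brd9 (243 and 309.9 FPKM) are subunits of different SWI/SNF forms, and Brd8 (406 and 271 FPKM) belongs to the Kat5 complex.

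Of 12 Smarc genes, 10 had less transcript under CR, with a median log2 ratio of -0.35 (52.1% of all genes were lower). Of these, 1 (Smarcad1) was past 2-fold lower, beside 10.7% of all genes. With a mean of 100 FPKM or more, 0 were past 2-fold lower. With the libraries rescaled to the same total, the 50 most abundant genes left aside, Smarcd1 passed 2-fold too. The alternative SWI/SNF ATPases differed in direction, with Smarca2 at 814 and 952 FPKM and Smarca4 at 456 and 325 FPKM. Their sum was level at 1271 and 1278 FPKM. In the deposited data 23 unnamed loci overlap Smarca4 and 0 overlap Smarca2, so the Smarca4 values are less secure. The ISWI ATPase Smarca5 stood at 891 and 564 FPKM. Smarcd3, the muscle form of its subunit family, stood at 495 and 358 FPKM and Smarcd2 at 42.7 and 36.3. Smarcd3 overlaps Chpf2, and Smarcd2 overlaps Psmc5. The core subunits Smarcc1 (341 and 316 FPKM), Smarcc2 (226 and 202 FPKM), Smarcb1 (136 and 120.4 FPKM) and Smarce1 (432 and 469 FPKM) lay closer together. Smarcal1, a helicase that anneals DNA strands, stood at 442 and 320.1 FPKM. Of 8 Chd genes, 6 were lower, 0 of them past 2-fold, and Chd3 alone was past 2-fold higher. Over all genes, 52.1% were lower, 10.7% were past 2-fold lower and 8.01% past 2-fold higher. The Chd class median was -0.29, which was -0.14 after the length-decile medians were subtracted. With that rescaling Chd6 was past 2-fold lower. Chd1, which binds methylated lysine 4 of histone H3, stood at 647 and 471 FPKM, Chd7 at 603 and 398, Chd8 at 956 and 778, and Chd9 at 566 and 497. Chd1l stood at 379.9 and 415 FPKM.

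DNA methylation enzymes numbered 4, with a median log2 ratio of -0.39, or -0.25 after the length-decile medians were subtracted. Tet3 stood at 233 and 156 FPKM, so both Tet genes measured were lower. Their sum went from 933 to 428 FPKM, of which Tet2 made up 75.0% and 63.6%. Dnmt3a, the de novo methyltransferase, was 1.45-fold higher, and Dnmt1, which copies methylation after replication, stood at 226 and 196 FPKM.

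Paralogs that can stand in for each other in a complex or reaction were set side by side by their share of the summed FPKM, in 12 families picked after the values were seen. In 5 of the 12 the share differed by more than 10 percentage points. Suv420h2 made up 9.47% of the sum with Suv420h1 in the control and 46.1% under CR, while that sum stood at 309.9 and 253 FPKM. Ezh2 made up 14.4% and 34.7% of the sum with Ezh1. Ezh1 itself was nearly level at 321 and 335 FPKM and remained the more abundant form in both libraries. Suv420h2 and Ezh2 were low in the control library, at 29.4 and 54.1 FPKM. Both values lie below the 96.6 FPKM of Hdac9, which was listed at 0 in the other library, so their shares are less secure. Kdm4c made up 42.0% and 24.9% of its family and Smarca4 35.9% and 25.5% of the SWI/SNF ATPases. Both Kdm4c and Smarca4 overlap unnamed loci. Chd3 made up 3.16% and 10.1% beside Chd4, so the NuRD ATPase transcript was mostly Chd4 in both.

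**Figure D4:**
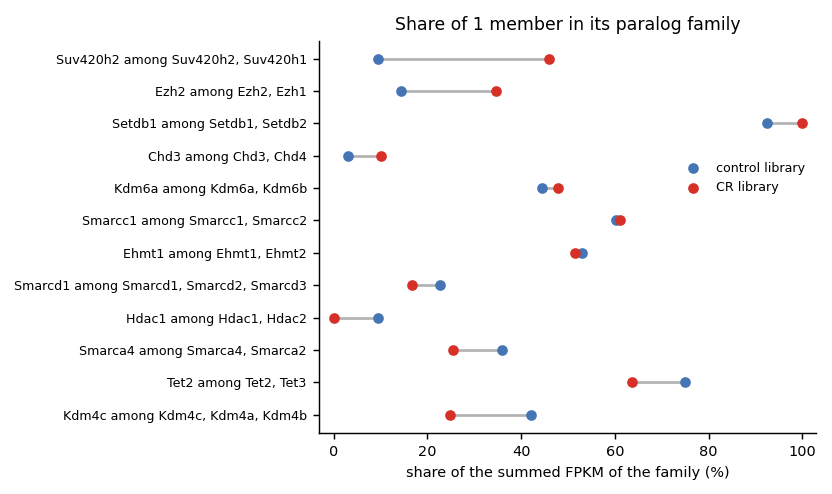
Share of the summed FPKM of a paralog family (horizontal axis, %) taken by the first-named gene, with the control library in blue and the CR library in red (1 library each). Suv420h2, at only 29.4 FPKM in the control library, has the longest line, from 9.47% to 46.1%, while Ehmt1 and Smarcc1 hardly differ.

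Partner subunits outside the naming rule were read from 9 lists, and their counts stand beside 8.01% higher and 10.7% lower over all genes. Among 21 measured Polycomb partners 2 were at least 2-fold higher and 2 at least 2-fold lower, with a median log2 ratio of 0.04. With a mean of 100 FPKM or more there was 1 in each direction and the median was -0.0669. Eed, the PRC2 subunit that binds methylated lysine 27, stood at 191 and 438 FPKM, 2.29-fold higher like its catalytic partner Ezh2, and Phc2 at 275 and 129 FPKM, 2.13-fold lower. The other PRC2 subunits were within 2-fold, with Suz12 at 369 and 276 FPKM, Rbbp4 at 994 and 879.5, Rbbp7, the most abundant on the list, at 1314 and 1352, and Jarid2 at 292 and 525. Pcgf2 was listed at 0 and 22.7 FPKM.

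Deacetylase complex partners had 0 of 21 at least 2-fold higher and 2 at least 2-fold lower, among them Sap30 of the Sin3 complex (79.2 and 19.7 FPKM), while Ncor1 stood at 1264 and 1168 FPKM. The median of this list was -0.11, and 1 was past 2-fold lower with a mean of 100 FPKM or more. Among 15 other histone methyltransferases 3 were at least 2-fold lower and 0 higher, with a median of -0.34. With a mean of 100 FPKM or more, 1 was past 2-fold lower and the median was -0.10. Dot1l, the lysine 79 methyltransferase of histone H3, stood at 893 and 304 FPKM, 2.93-fold lower. Prmt6 stood at 38.9 and 14.7 FPKM, Whsc1 was listed at 56.5 and 0, and Smyd2 stood at 3202 and 3087.

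COMPASS and trithorax partners had 1 of 11 past 2-fold in each direction (median -0.20), Dpy30 higher (288 and 589 FPKM) and Paxip1 lower (413 and 177 FPKM), and Ogt stood at 945 and 648. With that rescaling, or after the length-decile medians were subtracted, 0 of them were past 2-fold higher. BAF and PBAF partners had 1 of 13 at least 2-fold lower (median -0.33, or -0.18 with a mean of 100 FPKM or more). It was Dpf3, a subunit that reads acetylated histones in heart and skeletal muscle, at 190.5 and 42.0 FPKM, 4.45-fold lower, while Pbrm1 stood at 812 and 916. Acetyltransferase partners had 0 of 13 past 2-fold (median -0.33, or -0.19 after the length-decile medians were subtracted), with Trrap at 1597 and 1238 FPKM and Crebbp at 703 and 438. Of 22 ISWI, INO80 and SRCAP partners (median -0.05) Baz1a was listed at 36.9 and 0 FPKM and Ruvbl1 stood at 1167 and 1142. Of 12 methyl-CpG and heterochromatin proteins (median -0.13, or 0.0378 after the length-decile medians were subtracted) Tdg was listed at 23.4 and 0 FPKM and Atrx stood at 736 and 666. The 16 class IIa partners had a median of 0.00, and their most abundant gene, Ywhae, stood at 2835 and 3227 FPKM.

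**Figure D5:**
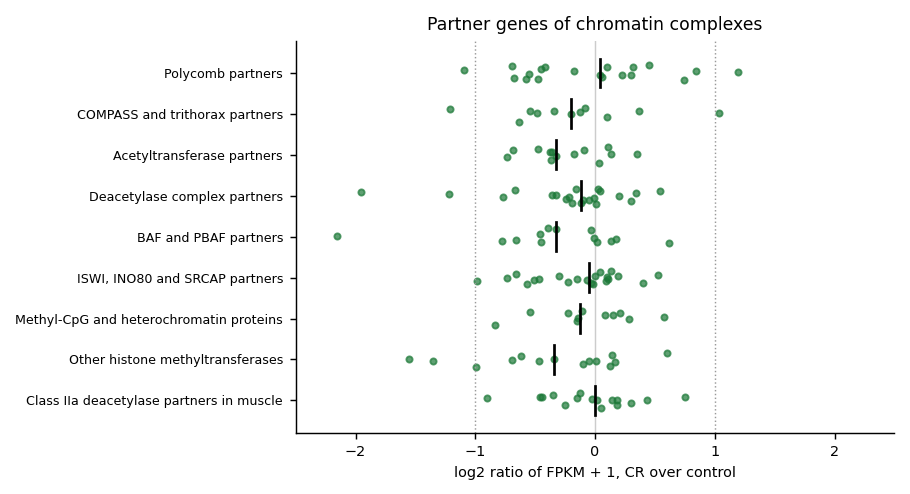
Log2 ratio of FPKM + 1, CR over control (horizontal axis), of partner genes in 9 lists, 1 point per gene above 0 in both libraries, spread vertically for visibility; black bars are list medians with genes listed at 0 included, and dotted lines mark 2-fold. List medians lie between -0.34 and 0.04, and few points pass 2-fold, the lowest being Dpf3 at -2.15.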

How the data were processed

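Poly(A) RNA libraries, 1 per diet, were made from 10 µg of total RNA broken to about 200 nt and read as 76 bp pairs, per the labels' protocols. TopHat 1.2.0, Cufflinks and Cuffdiff with build mm9 are named in the submitters' processing notes; for other versions, options, annotation and filters, nothing is stated. In the authors' deposited table each locus has an FPKM value per library, per the file headers. Their lowest value is exactly 1, and more than 6 significant digits occur in 98 of 101 control values from 1 to 2 but in 0 of 77 from 2 to 3, so 1 was taken to have been added and was subtracted. This is an inference. Read counts were not recovered from the values.

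Loci of 1 symbol were summed, 234 loci that merge symbols were left out, and 10533 genes whose mean reached 1 FPKM were kept. The log2 ratio is that of FPKM + 1, CR over control, with no further scaling. Adding 1 shrinks the ratios of genes near 0, but the lowest mean of a member was 16.9 FPKM. With 0.1 added instead, the same 12 members were past 2-fold. Folds of low genes are not conservative for that reason. Over all genes 8.01% were past 2-fold higher and 10.7% lower, beside 4.95% and 5.29% at a mean of 100 FPKM or more. Counts past 2-fold and medians were read beside those of all genes. The ratio and count code was run on the control values with set folds and no noise, which checks its arithmetic only. Alternatives were pseudocounts of 0.1 and 5, no filter, filters at 10 and 100 FPKM, centring on the median gene, equal sums without the 50 most abundant genes, the largest locus of a symbol, and leaving out genes listed at 0; subtracting length-decile medians was added after the data were seen.

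Members, lists and alternatives were chosen with earlier results of these data known. The text names members past 2-fold or listed at 0, the 5 nearest to 2-fold on each side, the most abundant of each class, all deacetylases, acetyltransferases and DNA methylation enzymes, and, of each partner list, up to 2 genes past 2-fold and the most abundant; other genes named, and the paralog families, were chosen after their values were seen. A few genes named by this rule are left unreported. Transcript lengths are the longest coding transcripts of GENCODE M21 by symbol (97.5% of genes). Promoters are from RefSeq on GRCm38.p6 and were cut to the 250 bases before the start; no coordinates were moved between builds. Python 3.11.15, numpy 2.4.6, pandas 2.3.3 and matplotlib 3.10.9 were used.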

Additional observations from a re-analysis of the deposited data

How the results depend on the processing

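No paired analysis was possible because each diet has 1 library. The members' median log2 ratio moved by less than 0.1 under each of the 10 alternatives, and no member past 2-fold changed sign. Equal sums shifted the median of all genes to -0.10 and brought Chd6 and Smarcd1 past 2-fold, and all 12 members past 2-fold before stayed past it. It put 2 Smarc genes, 1 Chd gene and 2 ISWI, INO80 and SRCAP partners past 2-fold lower, and 0 COMPASS partners past 2-fold higher. With a mean of at least 100 FPKM, 2 members were higher and 4 lower. In that setting the SET-domain class had 1 in each direction and a median of -0.29, deacetylases had 0 in each, and the Smarc class had 0 lower. Polycomb partners then had 1 in each direction and a median of -0.0669, deacetylase partners 1 lower, ISWI, INO80 and SRCAP partners and methyl-CpG proteins 0 lower, BAF partners a median of -0.18, and other methyltransferases 1 lower and a median of -0.10. Without genes listed at 0, 5 members were lower, the SET-domain class had 1 lower and a median of -0.0415, deacetylases had 0 in each direction, Polycomb partners 1 in each, ISWI, INO80 and SRCAP partners and methyl-CpG proteins 0 lower, and other methyltransferases a median of -0.22. Subtracting the length-decile medians gave medians of -0.0634 for demethylases, 0.00417 for SET-domain enzymes, -0.0380 for bromodomain genes, -0.14 for Chd genes, -0.25 for DNA methylation enzymes, -0.19 for acetyltransferase partners and 0.0378 for methyl-CpG proteins, with 1 SET-domain gene lower and 0 COMPASS partners higher. These changes follow from the genes each setting leaves out or shifts. Depth is unknown, and with 1 library per diet none of the differences can be set against a spread.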

Other observations

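Loci that merge a chromatin gene with another symbol were left out of the counts. Chd2, merged with 1810026B05Rik, stood at 810.2 FPKM in the control and 718 under CR (mm9 chromosome 7, 80571538 to 80703372). Kat2a, merged with Rab5c, stood at 865 and 863 FPKM (chromosome 11, 100566060 to 100599494).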
